A study of Mus musculus with 6 samples.

Results

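The genes of glutathione metabolism, NADPH supply and enzymatic removal of superoxide and peroxides were followed as a set of 34 genes chosen by function. They were found by symbol among the 49315 Ensembl genes of a count table of mouse hearts. The set falls into 5 roles: the NRF2 axis, glutathione synthesis with cystine uptake, glutathione transferases, NADPH production, and removal of superoxide and peroxides. All 34 genes matched 1 identifier each, and 32 had enough reads to be tested. A group of 3 hearts with a conditional Txnip C247S knock-in was set against 3 Txnip WT hearts, both on the C57BL/6 background, and total RNA was sequenced in bulk. TXNIP binds reduced thioredoxin, and the C247S change replaces a cysteine that takes part in that binding. MerCreMer recombinase and treatment with 4-hydroxytamoxifen are listed for every heart. It is not clear from the labels whether the Txnip WT hearts carried the recombinase, and no source used here gives its promoter or the age and sex of the mice.

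Glutathione and thioredoxin are the main thiol-reducing systems of the cell, and both draw their electrons from NADPH. NRF2, encoded by Nfe2l2, is the transcription factor that switches on many of these genes. It pairs with small MAF proteins on antioxidant response elements, and KEAP1 holds it down by passing it to a CUL3 ubiquitin ligase. Because that control acts on the protein, the Nfe2l2 transcript alone does not report NRF2 activity. In cardiac muscle, whose mitochondria are a steady source of superoxide, the superoxide dismutases, catalase and the glutathione peroxidases remove reactive oxygen.

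None of the 32 tested genes differed between knock-in and wild-type hearts at an adjusted p under 0.05 (edgeR quasi-likelihood test, Benjamini-Hochberg over all 12777 tested genes). In the same fit 38 genes, 0.297% of those tested, passed. DESeq2 and limma-voom, which called 1% and 0.141% of the tested genes, also called 0 members. At an unadjusted p under 0.05, 3 members were higher in knock-in hearts (Gstt1, Gss and Gstp1) and 1 was lower (Gclm). That is 4 of 32, where 9.97% of all tested genes reach this level, 4.74% higher and 5.23% lower. The count of 4 became 2 without knock-in replicate 1 and 1 when wild-type replicate 3 was left out, and without a low-count filter it was 5 higher and 2 lower. Gstt1 was counted in all of the settings tried.

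The antioxidant response element has the core TGACNNNGC, where N is any base, and windows from 250 bases before to 50 after each gene's start were searched for it on both strands. The windows are RefSeq's on GRCm38.p6, and 30 of the 34 genes had at least 1; Gclc, Gsr, Gsta4 and Sod3 are named only. The core was found at 9 of the 30 genes (30%), against 17.1% of the 9827 tested genes that had a window and 13.99% of all 27025 genes in the RefSeq table. The sites are shown because they bear on which members share the letters that NRF2 recognises. Each is given 5′ to 3′ on the strand where the core reads TGACNNNGC, with the core in capitals and 10 bases on either side.
Gclm, chr3:122245413-122245441, minus strand: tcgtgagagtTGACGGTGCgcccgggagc
Gsta3, chr1:21240454-21240482, plus strand: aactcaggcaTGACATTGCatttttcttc
Gstm5, chr3:107895802-107895830, plus strand: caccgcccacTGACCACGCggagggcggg
Mgst1, chr6:138140461-138140489, minus strand: ccccgcctccTGACCGTGCcaagccccgc
Me1, chr9:86695902-86695930, minus strand: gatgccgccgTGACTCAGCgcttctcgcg
Pgd, chr4:149166061-149166089, minus strand: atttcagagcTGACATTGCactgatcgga
G6pdx, chrX:74428919-74428947, plus strand: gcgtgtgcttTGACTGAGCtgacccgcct
Sod1, chr16:90220696-90220724, minus strand: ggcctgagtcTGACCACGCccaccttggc
Nfe2l2, chr2:75704885-75704913, minus strand: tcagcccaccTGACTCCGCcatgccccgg

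The letters of the AP-1 motif TGACTCA lie inside the Me1 site and in none of the other 8. NADPH production held the core most often, at 3 of its 5 genes, followed by 1 of 3 genes of glutathione synthesis and 3 of 11 glutathione transferases. The 9 genes with the core had log2 fold changes (knock-in over wild-type) of −0.43 to 0.36 with a median of 0.03. The 19 tested genes without it had −0.13 to 0.61 and a median of 0.03. A match is only a run of letters, and its absence says nothing of elements farther from the start. For Gclm, the member with the lowest log2 fold change, the 250 bases before the start are 78.4% G and C and hold the core near the middle, in capitals, here on the gene's plus strand.
Gclm, chr3:122245307-122245556, plus strand: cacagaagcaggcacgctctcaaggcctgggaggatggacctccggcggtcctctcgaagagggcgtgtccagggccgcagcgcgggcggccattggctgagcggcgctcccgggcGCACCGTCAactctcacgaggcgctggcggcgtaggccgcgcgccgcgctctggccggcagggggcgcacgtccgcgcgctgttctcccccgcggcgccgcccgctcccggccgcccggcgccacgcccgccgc

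Levels of different genes were compared as RPKM, the read count per kilobase of merged exons scaled for depth, with library sizes scaled by the trimmed mean of M values. Merged exons include every annotated isoform, so a gene with long, rarely used ends, such as Sod2 with 10008 bases, reads low on this scale. The 34 genes summed to 1714 ± 71.9 RPKM in knock-in and 1654 ± 173 RPKM in wild-type hearts (SD, n = 3 each). Gpx4, Mgst3 and Gstm1 together made up 48.1% ± 1.04 of that sum in knock-in and 47.4% ± 2.93 in wild-type hearts. Peroxide and superoxide removal took 45.6% ± 2.07 in knock-in and 46.6% ± 1.04 in wild-type hearts, and glutathione transferases took 44.0% ± 1.88 in knock-in and 43.1% ± 0.565 in wild-type hearts. Glutathione synthesis with cystine uptake took 0.867% ± 0.0308 in knock-in and 0.962% ± 0.180 in wild-type hearts. Transcripts of the 12 glutathione transferases were thus far more abundant, per length, than those of the 5 genes of glutathione synthesis with cystine uptake. This held in hearts of both genotypes. The 5 include Gsr, which recycles glutathione rather than making it. Gpx4 stood at the 99.2nd percentile of tested genes by RPKM and the median tested member at the 89.95th.

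**Figure D1:**
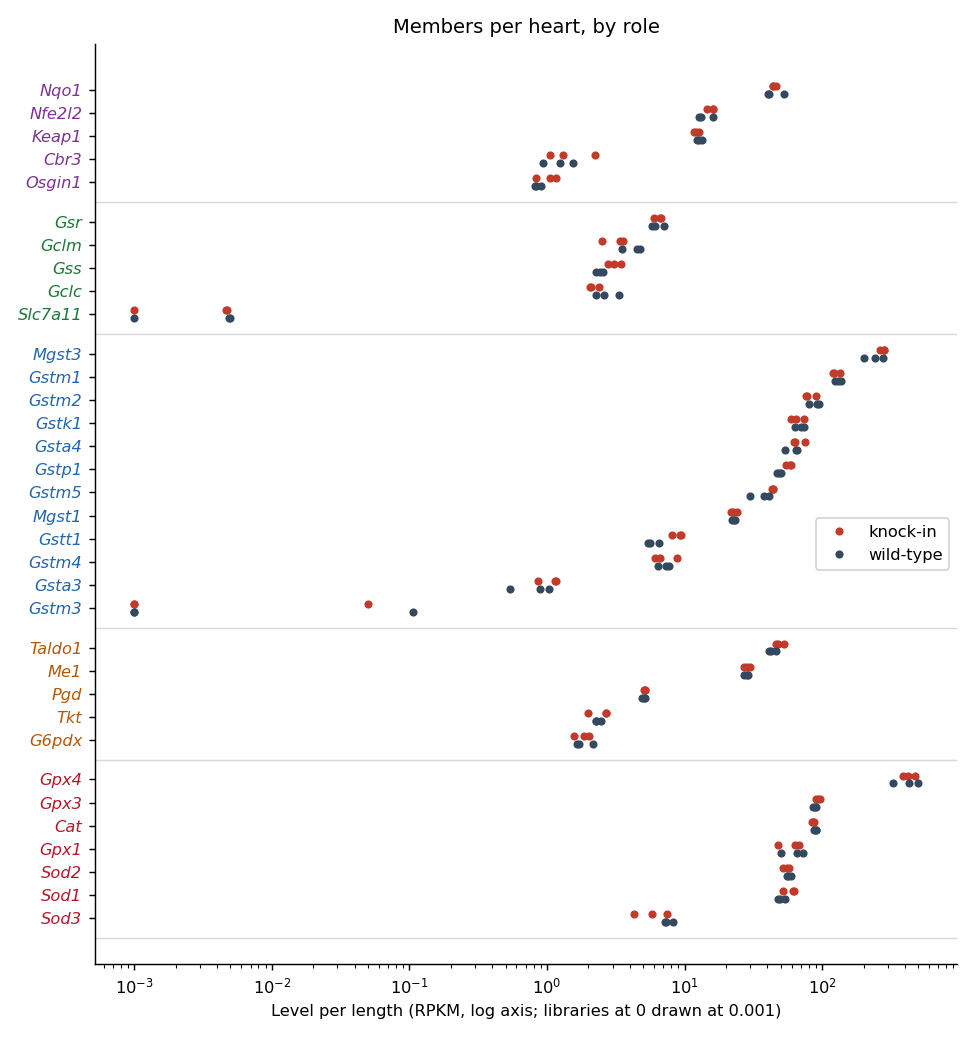
Level per length of each member in each heart, in RPKM on a log axis, with 3 knock-in hearts (red) above 3 wild-type hearts (dark blue) in each line; gene names are coloured by role and ordered by level within it. Gpx4 and Mgst3 lie farthest right, and Slc7a11 and Gstm3 had at most 2 counts in any heart, with hearts at 0 drawn at 0.001.

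Of the NRF2 axis, none of the 5 genes was called, and 3 had positive and 2 negative log2 fold changes, or 4 and 1 with RLE scaling. Nqo1, the quinone reductase widely read as an NRF2 target, was the most abundant, with 67.9, 72.3 and 68.6 CPM (counts scaled for depth, with no length correction) in knock-in hearts and 64.0, 81.9 and 62.8 CPM in wild-type hearts. The groups overlapped and the wild-type hearts were the more spread, around means that were the same to 3 digits. The log2 fold change of Nqo1 was 0.00 with a 95% interval of −0.26 to 0.26 (edgeR adjusted p = 0.9999), and its sign turned with the setting. Nfe2l2 had 55.2, 60.9 and 60.9 CPM in knock-in hearts and 48.6, 61.1 and 49.8 CPM in wild-type hearts (0.15 ± 0.12 SE, adjusted p = 0.744). Keap1, its repressor, averaged 57.1 ± 2.37 CPM in knock-in and 60.0 ± 2.59 CPM in wild-type hearts (log2 fold change −0.07 ± 0.10 SE), and 10.9% of its exon bases overlap Gm16754 on the other strand. Osgin1, an oxidative-stress-induced growth inhibitor, and Cbr3, a carbonyl reductase, were at the bottom of the role with 32 to 46 and 17 to 43 counts per heart. Their intervals, −0.26 to 0.78 for Osgin1 and −0.46 to 1.05 for Cbr3, were among the widest of the members.

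Of the 4 tested genes of glutathione synthesis, 2 had positive and 2 negative log2 fold changes, and 1 and 3 with library-size scaling; 0 were called. Glutamate-cysteine ligase, which starts the pathway, is made of the catalytic subunit Gclc and the modifier subunit Gclm. Gclm (ENSMUSG00000028124, chromosome 3, 122245557 to 122270732, plus strand, GRCm38) had 15.7, 22.5 and 21.3 CPM in knock-in hearts and 22.0, 29.7 and 28.4 CPM in wild-type hearts. Its groups overlapped through the highest knock-in and the lowest wild-type heart. Knock-in over wild-type came to −0.43 ± 0.16 on the log2 scale (SE; unadjusted p = 0.0244, edgeR adjusted p = 0.406), with an interval of −0.79 to −0.07, and to −0.28 without knock-in replicate 1. Gclc had 8.98, 7.91 and 7.70 CPM in knock-in and 8.52, 9.83 and 12.6 CPM in wild-type hearts, of which wild-type replicate 3 was the highest (−0.33 ± 0.17 SE, adjusted p = 0.584). Both subunits had lower means in knock-in hearts, and neither passed.

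Gss, glutathione synthetase, which adds glycine in the second step (ENSMUSG00000027610, chromosome 2, 155563181 to 155592810, minus strand), had 20.3, 16.4 and 18.1 CPM in knock-in and 14.4, 15.2 and 13.4 CPM in wild-type hearts. All 3 knock-in hearts lay above all 3 wild-type hearts, and the log2 fold change was 0.35 ± 0.13 (SE; unadjusted p = 0.0219, edgeR adjusted p = 0.392). Of the bases of its exons, 15.4% overlap exons of Acss2, Gssos1 or Gssos2 on the other strand, and the strand setting of the counting is not known, so its level is uncertain. Acss2 itself averaged 41.1 ± 4.63 CPM in knock-in and 40.6 ± 1.58 CPM in wild-type hearts (log2 fold change 0.02 ± 0.11 SE). Gsr, the NADPH-dependent reductase that recycles oxidised glutathione, had the highest level per length of the role, with 6.42 ± 0.409 RPKM in knock-in and 6.31 ± 0.649 RPKM in wild-type hearts. Its log2 fold change was 0.03 ± 0.13 (SE; adjusted p = 0.979). Slc7a11, the cystine importer, had 1, 1 and 0 counts in knock-in and 1, 0 and 1 counts in wild-type hearts, all under the floor of 3 counts (0.195 to 0.208 CPM), so no fold is given.

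**Figure D2:**
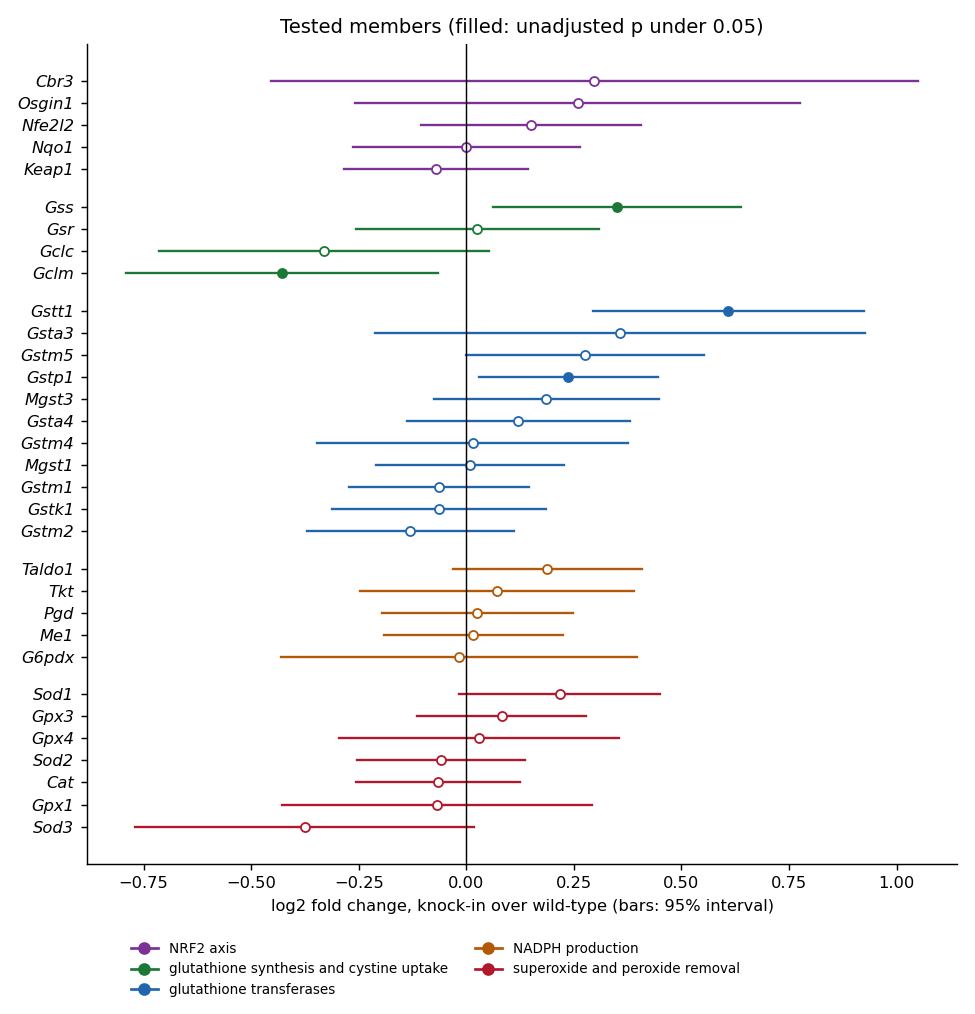
Log2 fold change of the 32 tested members, knock-in over wild-type, with 95% intervals as bars, grouped by role and ordered within it; filled points have an unadjusted p under 0.05. Gstt1 lies farthest right at 0.61 and Gclm farthest left at −0.43, and the intervals of 28 members include 0.

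Glutathione transferases join glutathione to electrophiles such as products of lipid peroxidation. Of the 12, 11 were tested, 8 with positive and 3 with negative log2 fold changes (6 and 5 with library-size scaling), and 0 were called. Their median was 0.12, against −0.01 over all tested genes. Gstt1, a theta-class cytosolic enzyme (ENSMUSG00000001663, chromosome 10, 75783813 to 75798584, minus strand), had the smallest p of all members. It had 14.1, 12.4 and 14.4 CPM in knock-in hearts and 8.52, 10.04 and 8.24 CPM in wild-type hearts. All 3 knock-in hearts lay above the wild-type range, with a gap larger than the SD of either genotype. The log2 fold change was 0.61 ± 0.14 (SE; interval 0.29 to 0.92; unadjusted p = 0.00138, edgeR adjusted p = 0.146), a fold of 1.53. The adjusted p was 0.0818 with DESeq2 and 0.161 with limma-voom. Gstt1 was called without a low-count filter (adjusted p = 0.0250), without knock-in replicate 2 (0.0480) and without both wild-type replicate 3 and knock-in replicate 2 (0.0319). Over all tested genes these settings called 317 of 21655, 174 of 13004 and 392 of 12881, against 38 of 12777 in the main fit. The last of the settings was chosen after seeing the data. Over all alternatives its log2 fold change stayed between 0.55 and 0.70 and its adjusted p between 0.0250 and 0.529.

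Gstp1, the pi-class enzyme (ENSMUSG00000060803, chromosome 19, 4035407 to 4037985, minus strand), had 90.5, 91.4 and 84.9 CPM in knock-in and 75.1, 78.3 and 72.9 CPM in wild-type hearts. The groups did not overlap, and the log2 fold change was 0.24 ± 0.09 (SE; unadjusted p = 0.0287, edgeR adjusted p = 0.427). Of the 31-base words of its longest transcript, 67.5% also occur in its neighbour Gstp2, so reads may be split between them. Gstp2 averaged 5.95 CPM in knock-in and 5.21 CPM in wild-type hearts (log2 fold change 0.19 ± 0.22 SE), below Gstp1. Mgst3, a membrane-bound microsomal enzyme and the most abundant transferase here, had 307, 308 and 287 CPM in knock-in and 265, 306 and 222 CPM in wild-type hearts. Wild-type replicate 2 lay inside the knock-in range, and the log2 fold change was 0.19 ± 0.12 (SE; adjusted p = 0.671), with 0.07 without wild-type replicate 3 and 0.30 without wild-type replicate 2.

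The mu-class genes form a cluster on chromosome 3, in which the 5 members lie between 107895821 and 108044894, 11.3 to 11.5 megabases beyond Txnip on the same chromosome. Gclm and Slc7a11 also lie on it, 25.7 and 46.1 megabases from Txnip. Txnip averaged 420 ± 25.0 CPM in knock-in and 752 ± 35.3 CPM in wild-type hearts (log2 fold change −0.84 ± 0.09 SE, edgeR adjusted p = 0.00379). The mu-class genes did not share one direction. Gstm5, at the near end, had 56.3, 56.3 and 55.1 CPM in knock-in and 48.1, 52.6 and 38.0 CPM in wild-type hearts (0.28 ± 0.13 SE, unadjusted p = 0.0509, adjusted p = 0.501). Its groups did not overlap, and the spread lay in the wild-type hearts. Gstm1 averaged 184 ± 11.9 CPM in knock-in and 192 ± 8.71 CPM in wild-type hearts (−0.06 ± 0.10). Gstm2 averaged 137 ± 12.4 CPM in knock-in and 149 ± 13.8 CPM in wild-type hearts (−0.13 ± 0.11). The means of Gstm4 were nearly equal, at 12.3 ± 2.46 CPM in knock-in and 12.2 ± 1.118 CPM in wild-type hearts (0.01 ± 0.16). Gstm3 had 0, 1 and 0 counts in knock-in and 0, 2 and 0 in wild-type hearts, under the floor in all. Gstm1 shares 34.3% of its words with other genes, chiefly the pseudogene Gstm2-ps1, and Gstm2 shares 19.5%, so both are uncertain, and 13.9% of the exon bases of Gstm5 overlap an antisense gene.

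None of the remaining transferases had an unadjusted p under 0.05. Gsta4, which handles lipid aldehydes, averaged 84.6 ± 8.78 CPM in knock-in and 77.8 ± 8.29 CPM in wild-type hearts (log2 fold change 0.12 ± 0.12 SE). Gsta3 had 57 to 77 counts in knock-in and 34 to 66 counts in wild-type hearts, with the second highest log2 fold change of the role after Gstt1, 0.36 ± 0.26 (SE), and a wide interval (−0.21 to 0.93). Gstk1, the kappa-class enzyme of mitochondria and peroxisomes, averaged 97.2 ± 11.1 CPM in knock-in and 102 ± 7.58 CPM in wild-type hearts (−0.06 ± 0.11). Mgst1 averaged 45.9 ± 2.41 CPM in knock-in and 45.6 ± 1.17 CPM in wild-type hearts (0.01 ± 0.10), one of the smallest differences among the members.

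**Figure D3:**
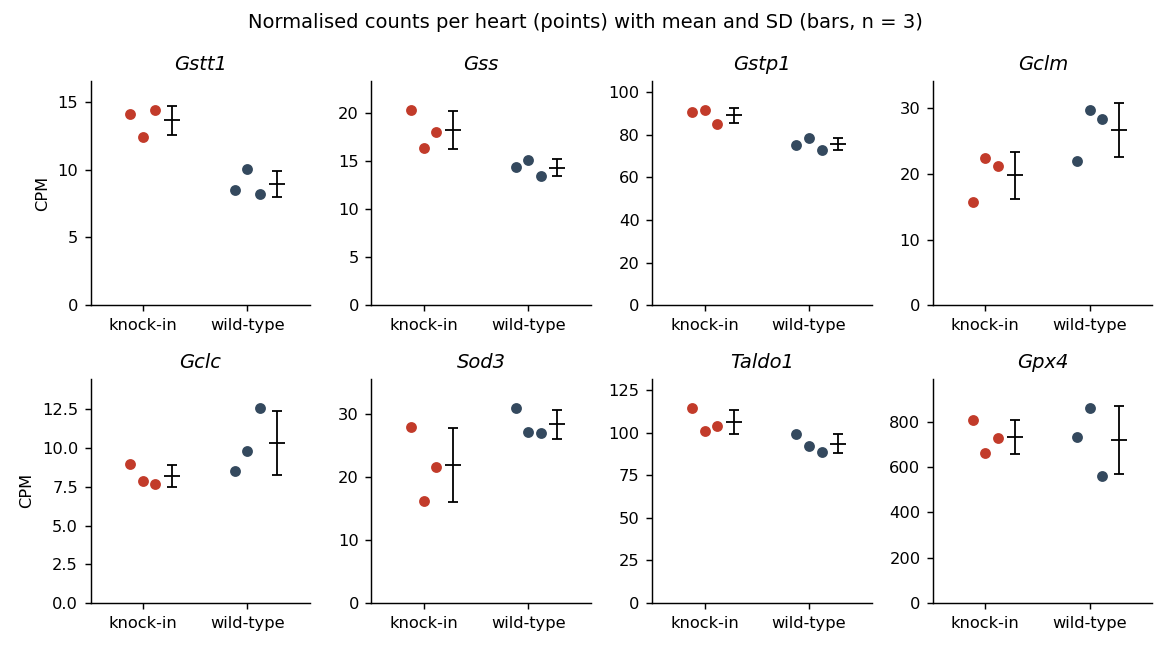
Normalised counts in CPM, from 0, of 8 members in each heart (points) with mean and SD (bars, n = 3), knock-in left and wild-type right. The genotypes do not overlap for Gstt1, Gss, Gstp1 and Taldo1, and overlap for Gclm, Gclc, Sod3 and Gpx4.

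Sources of NADPH include the oxidative branch of the pentose phosphate pathway and malic enzyme, and 0 of the 5 members of this role were called. Log2 fold changes were positive for 4 and negative for 1, but positive for 2 and negative for 3 with library-size scaling. G6pdx, the X-linked enzyme that commits glucose to the pathway, was among the least abundant members, with 88, 74 and 91 counts in knock-in and 97, 76 and 74 counts in wild-type hearts. Its log2 fold change was −0.02 ± 0.19 (SE), 13.6% of its exon bases overlap Ikbkg on the other strand, and 17.7% of its words occur in other genes, chiefly G6pd2. Pgd, the next dehydrogenase, averaged 33.2 ± 0.296 CPM in knock-in and 32.6 ± 0.729 CPM in wild-type hearts (0.03 ± 0.10). Me1, the cytosolic malic enzyme, averaged 110 ± 5.75 CPM in knock-in and 109 ± 4.20 CPM in wild-type hearts (0.02 ± 0.09). It shares 42.2% of its words with other genes, chiefly Gm7049, so its level is uncertain. Taldo1, the transaldolase of the non-oxidative branch, had both the highest level per length and the smallest p of the role. It had 114, 101 and 104 CPM in knock-in and 99.5, 92.2 and 88.7 CPM in wild-type hearts, which did not overlap (0.19 ± 0.10 SE, edgeR adjusted p = 0.591). Its level is uncertain too, as 22.5% of its words occur in Gm17823. Tkt, its partner transketolase, averaged 18.0 ± 2.99 CPM in knock-in and 17.2 ± 0.805 CPM in wild-type hearts (0.07 ± 0.14).

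Among the enzymes that remove superoxide and peroxides, 3 of 7 had positive and 4 negative log2 fold changes (2 and 5 with library-size scaling), and 0 were called. Gpx4, which reduces lipid hydroperoxides within membranes, had 810, 663 and 728 CPM in knock-in and 734, 861 and 560 CPM in wild-type hearts. The wild-type hearts spanned the whole knock-in range. With a log2 fold change of 0.03 ± 0.15 (SE; edgeR adjusted p = 0.979) no difference passed, and 66.8% of the words of its transcript occur in other genes, nearly all in the pseudogene Gpx4-ps2. Gpx1, the cytosolic peroxidase, had 97.2, 68.3 and 91.8 CPM in knock-in and 94.1, 104 and 71.8 CPM in wild-type hearts (−0.07 ± 0.16 SE). For both peroxidases the lowest knock-in heart was replicate 2 and the lowest wild-type heart was replicate 3. Gpx3, the secreted plasma peroxidase, had 174, 163 and 169 CPM in knock-in hearts, against 163, 156 and 160 CPM in wild-type hearts, a narrow gap without overlap and with a log2 fold change of only 0.08 ± 0.09.

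Cat, the peroxisomal catalase, was the most even member, with 221, 222 and 226 CPM in knock-in and 230, 236 and 236 CPM in wild-type hearts. The groups did not overlap, yet the log2 fold change was −0.07 ± 0.09 (SE; interval −0.26 to 0.12; adjusted p = 0.879). Sod1, the cytosolic dismutase, had 249, 205 and 242 CPM in knock-in and 214, 195 and 189 CPM in wild-type hearts (0.22 ± 0.11 SE, adjusted p = 0.542). Knock-in replicate 2 lay inside the wild-type range. Sod2, the mitochondrial manganese enzyme, averaged 550 ± 29.1 CPM in knock-in and 573 ± 20.98 CPM in wild-type hearts (−0.06 ± 0.09). Sod3, the extracellular dismutase, had the smallest p of the role, with 27.9, 16.1 and 21.6 CPM in knock-in and 31.02, 27.2 and 27.0 CPM in wild-type hearts (−0.38 ± 0.18 SE, adjusted p = 0.527). Without knock-in replicate 2 the log2 fold change of Sod3 was −0.19, and −0.58 without knock-in replicate 1. Its lowest value was that of knock-in replicate 2. Summed fibroblast markers were also the lowest there, at 1380 CPM (798 of it Gsn), against 1714 and 1738 CPM in the other knock-in hearts. They came to 1456 to 1500 CPM in the wild-type hearts. Summed endothelial markers were the lowest there too, at 535 CPM against 839 and 842 CPM in the other knock-in hearts. In the wild-type hearts these came to 569 to 815 CPM. The part of either list in the Sod3 value was not tested.

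The intervals of the 32 tested members show how large a difference these 6 hearts still allow. For 31 of them the 95% interval lay within a log2 fold change of −1 to 1, and for 23 within −0.5 to 0.5; Cbr3, with as few as 17 counts in a heart, was the exception to the first. The SE ran from 0.09 for Cat to 0.34 for Cbr3, with a median of 0.12. In 7 members the 3 values of the genotypes did not overlap, 6 with knock-in above (Gstt1, Gss, Gstp1, Gstm5, Taldo1 and Gpx3) and 1 below (Cat). Of all tested genes, 16.1% did not overlap, 8.12% with knock-in above and 7.99% below. Positive log2 fold changes were found for 20 of the 32 members and 48.3% of all tested genes, and for 14 of the 32 and 40.1% of all tested genes when libraries were scaled by their totals alone. That scaling moved the median of all tested genes to −0.05, so members near 0 changed sign with it.

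Wild-type replicate 3 had the lowest value of the 6 hearts in 12 of the 32 members (37.5%) and in 22.2% of all tested genes. The median member there lay 0.11 below its mean over the 6 hearts on the log2 scale. That library also had the highest share of mitochondrially encoded reads, 27.95% against 22.9% to 24.3% in the others, and the part of this in the members' values was not tested. Totals per library ran from 14146048 to 15620476 counts, and the 34 genes took between 0.340% and 0.365% of them in knock-in hearts, against 0.320% to 0.380% in wild-type hearts.

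**Figure D4:**
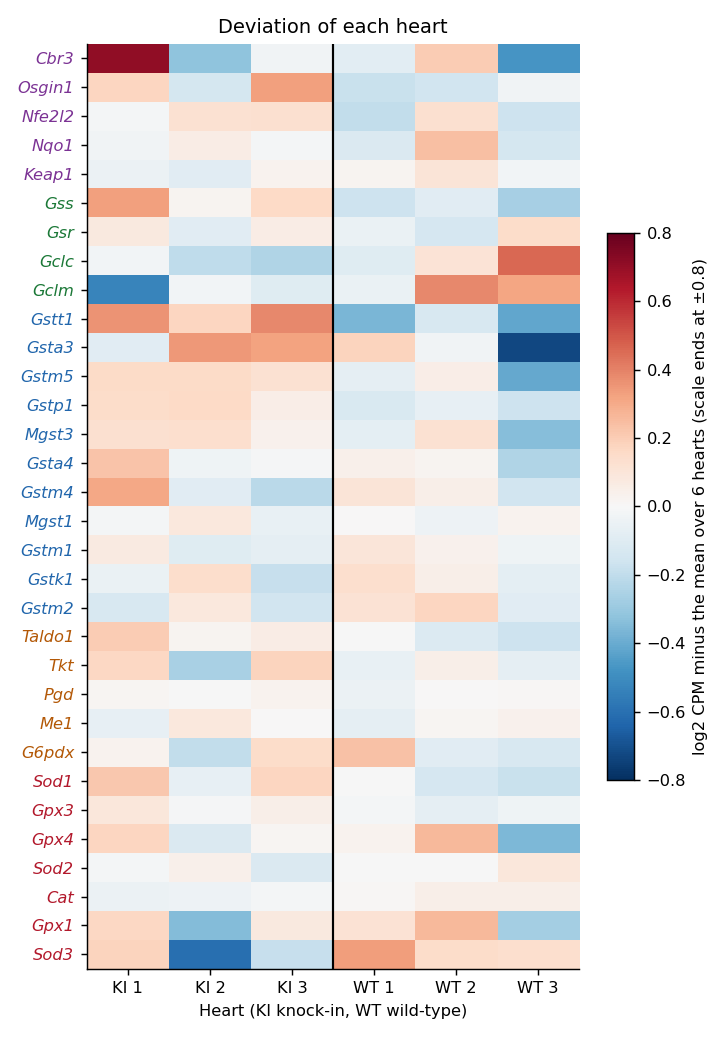
Log2 CPM of each tested member in each heart, minus its mean over the 6 hearts, with knock-in hearts on the left and wild-type hearts on the right; red is above and blue below the mean. Wild-type replicate 3 was the lowest heart for 12 of 32 members, and Gstt1 is red in all knock-in and blue in all wild-type hearts.

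Heart samples hold several cell types, and in bulk RNA fewer cells of a type cannot be told apart from less RNA per cell. Contractile genes of the heart muscle cell dominated, with summed markers of 87137 to 89229 CPM in knock-in and 78400 to 81048 CPM in wild-type hearts. Only Myl2 was called, at 15409 ± 343 CPM in knock-in and 10525 ± 583 CPM in wild-type hearts (edgeR adjusted p = 0.0399). Of the 9 tested, 8 had positive and 1 negative log2 fold changes, with a median of 0.08. The atrial light chain Myl7 was at the bottom of that list, with at most 0.341 CPM in a knock-in and 0.346 CPM in a wild-type heart. Erythroid markers summed to 1501 to 1973 CPM in knock-in and 489 to 669 CPM in wild-type hearts, and 7 of the 8 were called higher. Red cells are rich in the proteins catalase, SOD1 and GPX1, and in humans also hold GSTT1 protein. The transcripts of red cells alone were not measured here. Between the genotypes, Gstt1 and Sod1 had positive and Cat and Gpx1 negative log2 fold changes. Knock-in replicate 2 had the most erythroid signal of the 3 knock-in hearts, and also the lowest endothelial and fibroblast sums. Gstt1, Sod1 and Gpx1 were the lowest of the 3 in the same heart, while its Cat lay between the others. Macrophage and monocyte markers, of which all 12 had negative log2 fold changes and 1 was called, summed to 287 to 314 CPM in knock-in and 380 to 441 CPM in wild-type hearts. Smooth muscle and pericyte markers summed to between 610 and 636 CPM in knock-in and between 708 and 783 CPM in wild-type hearts. The 1 of 8 called lower was Acta2, with 80.1 ± 11.8 CPM in knock-in and 189 ± 17.1 CPM in wild-type hearts. Of the 8, 3 had positive and 5 negative log2 fold changes. Endothelial markers overlapped. Neutrophil markers were scarce, with sums of 7.97 to 17.2 CPM in knock-in hearts, against 3.34 to 7.27 CPM in wild-type hearts. The 7 adipocyte markers summed to between 381 and 528 CPM in knock-in and between 318 and 505 CPM in wild-type hearts, nearly all of it Fabp4, which is not restricted to adipocytes, while Lep and Plin1 were at 0 in every heart. The part of these cell types in the members' values was not tested.

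**Figure D5:**
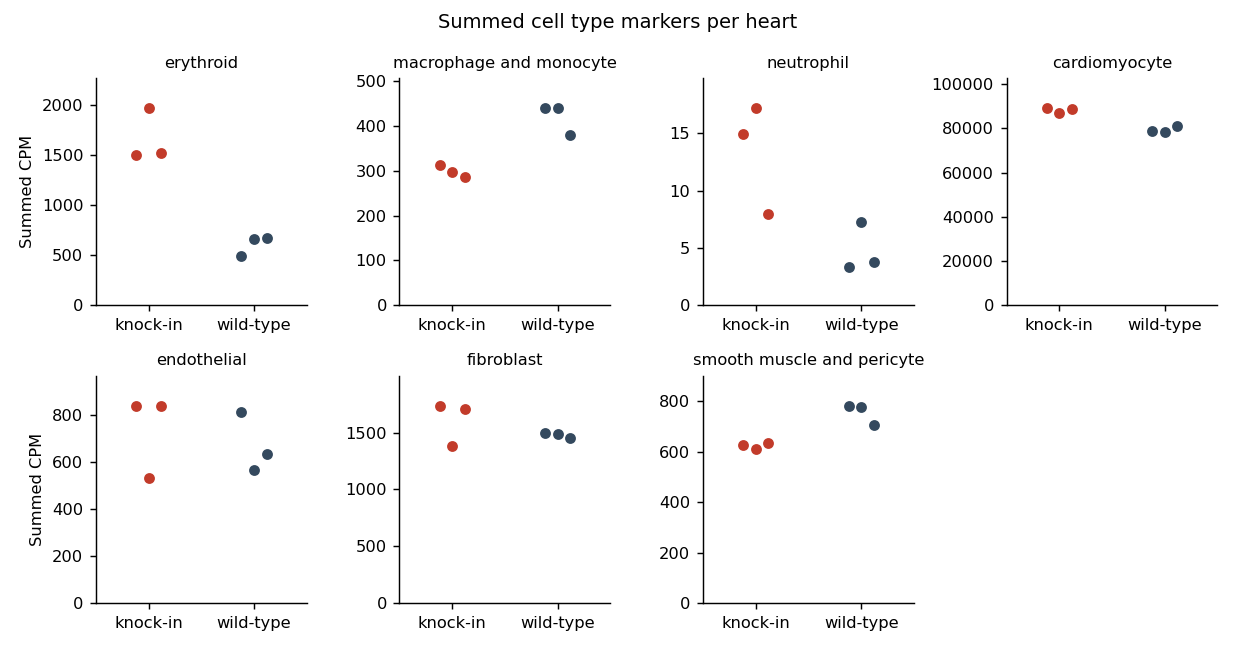
Summed CPM of 7 lists of cell type markers in each heart, from 0, knock-in left and wild-type right. Erythroid, neutrophil and cardiomyocyte sums lie higher and macrophage and smooth muscle sums lower in all 3 knock-in hearts, and endothelial and fibroblast sums overlap. The smooth muscle list includes Acta2, at a mean of 80.1 CPM in knock-in and 189 CPM in wild-type hearts. Of its 8 genes, 3 had positive and 5 negative log2 fold changes.

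Other genes of the same pathways were read from the same fit, and in these 3 lists 0 were called by edgeR, DESeq2 or limma-voom. Of 28 tested further glutathione genes 11 had positive and 17 negative log2 fold changes (median −0.05), with 2 higher and 2 lower at an unadjusted p under 0.05. Over all tested genes, 4.74% were higher and 5.23% lower at that level. The alpha-class transferases Gsta1 and Gsta2 had the smallest p. Gsta1 had 13, 16 and 8 counts in knock-in and 25, 26 and 23 counts in wild-type hearts (−1.05 ± 0.32 SE, adjusted p = 0.268). Gsta2 had 6, 4 and 1 counts in knock-in and 10, 13 and 16 counts in wild-type hearts (−1.85 ± 0.53, adjusted p = 0.237). These 2 rest on few reads and share 92.2% and 75.6% of their words with other genes, so their values are uncertain. Slc3a2, the heavy chain that carries SLC7A11 to the membrane, averaged 39.7 CPM in knock-in and 29.8 CPM in wild-type hearts (0.42 ± 0.15, adjusted p = 0.365).

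Of 16 tested further NADPH genes 8 had positive and 8 negative log2 fold changes, with 1 higher and 2 lower at an unadjusted p under 0.05. These were the folate enzymes Mthfd2l (0.63 ± 0.24 SE, adjusted p = 0.398) and Aldh1l1 (−0.43 ± 0.17, adjusted p = 0.420) and the cytosolic isocitrate dehydrogenase Idh1 (−0.30 ± 0.12, adjusted p = 0.426). Of 27 tested further NRF2 targets and regulators 10 had positive and 17 negative values (median −0.06), with 1 higher and 5 lower at an unadjusted p under 0.05. For both lists, the shares of all tested genes at that level were 4.74% higher and 5.23% lower. Aox1, an aldehyde oxidase, averaged 19.7 CPM in knock-in and 28.7 CPM in wild-type hearts (−0.54 ± 0.12, adjusted p = 0.139). Ftl1, the ferritin light chain, averaged 306 CPM in knock-in and 379 CPM in wild-type hearts (−0.31 ± 0.09, adjusted p = 0.267), with 94.9% of its words shared with other genes. Hmox1, the haem oxygenase also abundant in macrophages, had −0.58 ± 0.17 (adjusted p = 0.254). For all 3 the knock-in hearts lay below the wild-type hearts without overlap. Over the 27 tested genes of this list, the groups did not overlap for 4 with knock-in above and 5 with knock-in below. The shares over all tested genes were 8.12% above and 7.99% below.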

How the data were processed

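Whole-number counts of reads for each Ensembl gene came from 1 table deposited by the authors, with no normalization applied. Per the submitters' processing notes, the tools were STAR, featureCounts, Subread 1.5.2 and DESeq2 and the build GRCm38.p6; which did what is not stated there, nor are the gene models, whether strand was used or how multiply matching reads were handled. Per the labels' protocols, RNA was purified with an RNeasy kit and the libraries used NEBNext Ultra II chemistry. Names, positions and exon lengths came from GENCODE M21 (GRCm38). Genes kept by filterByExpr were scaled by TMM and tested in edgeR 4.0.16 (R 4.3.3) by the robust quasi-likelihood fit, with genotype as the single term over 6 libraries. The SE is the size of the log2 fold change over the square root of F, and 95% intervals, not adjusted for the number of genes, use the test's degrees of freedom. DESeq2 1.42.0 and limma 3.58.1 (voom) were alternatives, as were other scalings and filters, each library left out, and mitochondrial genes left out. The labels do not say that the hearts were independent animals, so p-values measure the spread between these samples, which may be partly technical. The floor of 3 counts covers counting error only.

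The members and lists were chosen with earlier results of these data known. Full statistics are given for members at an unadjusted p under 0.05 and, in each role, for the most abundant per length and the smallest p; further lists name the 3 genes with the smallest p. The genes of the plot per heart were chosen after their values were seen. The fit was also run on simulated data as a check of the code only, and the outcome is not reported here.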

Additional observations from a re-analysis of the deposited data

How the results depend on the processing

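The count of 38 called genes over the whole table was 317 without a low-count filter, 128 with DESeq2, 18 with limma-voom and 75 at an adjusted p under 0.1. It was 5 (without wild-type replicate 2) to 174 (without knock-in replicate 2) with 1 library left out, with 6 without knock-in replicate 3, 14 without wild-type replicate 1 and 13 without wild-type replicate 3, and 392 without both wild-type replicate 3 and knock-in replicate 2, a setting chosen after seeing the data. The count of called members, 0, became 1 (Gstt1) without a filter and without those 2 libraries, and was 0 to 1 with 1 library left out, the 1 being Gstt1 without knock-in replicate 2. The members' median of 0.03 ran from −0.01 with library-size scaling to 0.08 without knock-in replicate 2. Of the 32 tested members, 20 kept their direction in all 16 alternatives and 12 turned in at least 1, of which 11 turned with 1 library left out. With 1 library left out, log2 fold changes ran from −0.58 to −0.19 for Sod3, −0.55 to −0.28 for Gclm, −0.45 to −0.16 for Gclc, 0.07 to 0.30 for Mgst3, 0.09 to 0.26 for Nfe2l2, 0.13 to 0.56 for Gsta3 and 0.15 to 0.38 for Gstm5. Of those that turned, Cbr3 was −0.07 without knock-in replicate 1, Gpx1 0.08 without knock-in replicate 2, G6pdx 0.11 without wild-type replicate 1, Gstm4 −0.15 without knock-in replicate 1, and Gstk1 0.01 and Tkt −0.0022 without knock-in replicate 3. Me1 was −0.015 without wild-type replicate 1, Mgst1 −0.02 without knock-in replicate 2 and Pgd −0.015 with library-size scaling. Nqo1 was 0.0050 with RLE scaling and with DESeq2, 0.0046 without a filter and 0.010 with limma-voom, −0.090 without the 2 libraries and −0.07 to 0.135 with 1 library left out. Gpx4 was −0.013 with library-size scaling, −0.05 without the 2 libraries and −0.12 to 0.18 with 1 left out. Gsr was −0.013 with library-size scaling, 0.17 without the 2 libraries and −0.033 to 0.11 with 1 left out. The cause of these moves was not tested. No paired analysis was possible because the labels give no pairing of the hearts. The labels give no replicate numbers either, and those used here follow the order of the samples within each genotype. Depth left Slc7a11 and Gstm3, at most 2 counts per heart, untested, and Cbr3, Osgin1 and Gsta3 had few counts and wide intervals.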

Other observations

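Genes that make superoxide and peroxide, the counterpart of the enzymes above, were also read. Of 10 tested genes for NADPH oxidase subunits, xanthine dehydrogenase and monoamine oxidases, 7 had positive and 3 negative log2 fold changes (median 0.19), and edgeR, DESeq2 and limma-voom called 0. At an unadjusted p under 0.05 there was 1 higher and 1 lower, against 4.74% higher and 5.23% lower of all tested genes. Cybb, the catalytic subunit of the phagocyte oxidase, averaged 4.33 CPM in knock-in and 7.05 CPM in wild-type hearts (−0.70 ± 0.19 SE, edgeR adjusted p = 0.207). Its membrane partner Cyba, which is not restricted to phagocytes, averaged 30.1 CPM in knock-in and 23.4 CPM in wild-type hearts (0.36 ± 0.16, adjusted p = 0.474). Summed macrophage markers were lower in knock-in hearts as given above, and their part in the Cybb value was not tested. Maob, the monoamine oxidase of the outer mitochondrial membrane, averaged 53.7 CPM in knock-in and 44.0 CPM in wild-type hearts (0.29 ± 0.17, adjusted p = 0.635).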
